A study of Mus musculus with 7 samples.

Results

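Astrocyte nuclei in which no *Gfap* transcript was counted were taken from hippocampal single-nucleus RNA-seq of wild-type and Arctic48 mice. A nucleus was placed among the astrocytes when the transcripts of *Slc1a2*, *Slc1a3*, *Gpc5*, *Aqp4*, *Slc4a4*, *Plpp3* and *Rorb* made up at least 1% of its transcripts, at least 3 of these 7 genes were detected, and *Pdgfra*, a gene of oligodendrocyte precursors, was at 0. It was called Gfap-zero when *Gfap* was also at 0, and Gfap-positive otherwise. The rule found 5453 astrocyte nuclei among 45138 nuclei that passed the study's filters, and 3250 of them (59.6% of the astrocyte nuclei, 7.2% of all nuclei) were Gfap-zero.

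The mice were 10 months old. Arctic48 (Arc) mice were hemizygous for a human *APP* transgene that carries the Indiana, Swedish and Arctic mutations, in a line made on a C57BL6/J background, and wild-type (WT) mice came from the same crosses and lacked it. PMX205, a cyclic hexapeptide antagonist of the complement receptor C5aR1, was given at 20 µg/ml in the drinking water for 12 weeks by the labels (the study's text and legends give a shorter span), and vehicle mice drank plain water (the groups are WT-veh and WT-PMX, and Arc-veh with Arc-PMX). The labels name the transcription inhibitors actinomycin D and triptolide in the perfusion of the mice, whereas the methods name inhibitors for the isolation of microglia and none for the nuclei. Each single-nucleus well held hippocampal tissue of a single hemisphere, and 6 wells per group (3 female, 3 male; F1 to F3 and M1 to M3) were the replicates of every test. The study's reporting summary states that 1 WT sample was left out as Arctic without naming it, so all 24 wells were kept. *App* in neuronal nuclei, to which reads of the human transgene may map, ranged from 468 to 592 CPM (transcripts of a gene per 1000000 transcripts of the nuclei summed in the well) in the 12 WT wells and from 570 to 810 CPM in the 12 Arc wells, so the ranges overlapped.

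Astrocytes clear glutamate and potassium around synapses, carry water and bicarbonate, and couple to each other through gap junctions. GFAP is the intermediate filament protein by which they are most often stained, and it rises when astrocytes become reactive near injury or amyloid plaques. In the grey matter of the mouse brain many astrocytes hold little GFAP, so that a stain or a transcript count for it can leave them out. A missing count does not by itself show such a cell. In WT-veh wells *Gfap* averaged 134 CPM over all astrocyte nuclei. The nuclei without a *Gfap* count there had well medians averaging 1307 transcripts, so *Gfap* RNA could be missed by sampling alone. How many of these nuclei lacked *Gfap* RNA was not tested.

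The label of the nuclei was first read against their markers. The 7 rule genes, which chose the nuclei and are given only as a description, made up a median of 3.29% of a nucleus' transcripts, and 572 nuclei held all 7. *Slc1a2*, the main glutamate transporter of astrocytes, was counted in 99.5% of Gfap-zero nuclei, *Gpc5*, a glypican, in 97.4%, *Slc4a4*, a sodium bicarbonate cotransporter, in 89.7%, and *Rorb*, a nuclear receptor, in 80.3%. *Aqp4*, the water channel of astrocyte endfeet, was counted in only 24.8% of them, against 57.1% of the deeper Gfap-positive nuclei.

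Astrocyte genes that the rule did not use were also present. *Glul*, glutamine synthetase, was counted in 53.8% of Gfap-zero nuclei (median 1468.5 transcripts per nucleus) and in 4.23% of neuronal nuclei (median 8118 transcripts). *Gja1*, connexin 43, was counted in 33.6% against 0.73%, and *Slc7a10*, an exchanger of neutral amino acids such as D-serine, in 38.2% against 0.838%. The summed level of 16 such markers ranged from 8137 to 13128 CPM over the wells in Gfap-zero nuclei and from 1079 to 2423 CPM in nuclei that were not astrocytes. These shares stood far above those in neurons, although the neuronal nuclei were deeper.

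Markers of other cell types were low but not absent. Over the 24 wells, the 10 neuronal markers summed to 456 to 2083 CPM in Gfap-zero nuclei and to 14152 to 20492 CPM in the nuclei outside the astrocyte rule. *Rbfox3* was in 6.15% of Gfap-zero and 92.1% of neuronal nuclei. The neuronal nuclei were deeper and were chosen by markers that include *Rbfox3*, so their share is a description only. The 8 oligodendrocyte markers summed to 52.4 to 1309 CPM, and *Mog*, a myelin protein, was in 1.6% of the nuclei. *Cldn5*, a tight junction gene of endothelium, was in 0.0615% and *Csf1r*, the growth factor receptor of microglia, in 0.954%. A doublet score above 0.25 marked 98 of the 3250 nuclei, and in 37 nuclei the summed markers of neurons, oligodendrocytes, their precursors or microglia outnumbered the rule genes. Values at the limits of the rule are given once: the 35 Gfap-zero nuclei with 1.0 to 1.1% rule genes held 4616 CPM of neuronal and 6352 CPM of oligodendrocyte markers, against 1339 and 623 CPM over all Gfap-zero nuclei, and the 48 nuclei just below the limit held 8446 and 1798 CPM. Across the *Gfap* limit, the 780 nuclei with 1 *Gfap* transcript had a median of 1932.5 transcripts and 30775 CPM of rule genes, against 31659 CPM in the nuclei with none.

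Depth differed among the groups and is part of what a count of 0 means. Gfap-zero nuclei had 500 to 26952 transcripts. Over the pooled nuclei of a group, the median was 1335 in WT-veh, 1508 in WT-PMX, 1547 in Arc-veh and 1753.5 in Arc-PMX. Taken per well, the groups lay further apart. The medians of single wells ranged from 729 to 2084 in WT-veh (mean 1307) and from 1059.5 to 3022 in Arc-veh (mean 2213). They ranged from 954 to 3506 in WT-PMX (mean 1849) and from 908 to 3665.5 in Arc-PMX (mean 2093). Gfap-positive nuclei had a median of 2593. Summed per well, the Gfap-zero nuclei held 92097 to 534657 transcripts in WT-veh but 61208 to 223626 in Arc-veh, from 117 to 275 and from 24 to 144 nuclei. The 7 deposited sublibraries each held a part of every well, and 4080 barcode combinations occurred in more than 1 of them (8449 of all nuclei kept).

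How often astrocyte nuclei lacked *Gfap* was compared between the groups first. Because the rule itself counts *Gfap*, this share describes *Gfap* in astrocytes of each well and not a property of the Gfap-zero nuclei. In WT-veh wells 74.8 to 91.0% of astrocyte nuclei were Gfap-zero (median 87.3%), in WT-PMX wells 61.8 to 89.7% (median 82.2%), in Arc-veh wells 16.0 to 51.8% (median 20.3%) and in Arc-PMX wells 18.8 to 46.3% (median 33.8%). Every Arc well lay below every WT well. Within Arc-veh, F1 and M1 (50.2% and 51.8%) stood above the other 4 wells (16.0 to 20.5%), and their Gfap-zero nuclei were also the shallowest of the group (medians 1059.5 and 1432 transcripts against 1885.5 to 3022). With each nucleus thinned to 500 transcripts, F1 and M1 were at 68.0% and 78.1% and the other 4 wells at 51.3 to 63.2%, so the order stayed and the gap was narrower.

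The Arc-veh share (29.4% ± 16.8, SD, n = 6) stood below the WT-veh share (86.0% ± 6.11), with a difference of -56.6 percentage points that was beyond the spread between wells (two-sided exact permutation test over wells, adjusted p = 0.00649 over 3 comparisons, raw p = 0.00216, the smallest the test can give). With each astrocyte nucleus thinned to 500 transcripts, no nucleus was lost and the difference shrank to -30.7 points (63.4% ± 9.02 against 94.1% ± 1.43, exact permutation, adjusted p = 0.00649). The Arc-PMX share exceeded that of Arc-veh by 3.81 points and the WT-PMX share differed from that of WT-veh by -7.91 points. Neither was larger than the spread between wells (exact permutation, adjusted p = 0.66 and 0.234).

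As a share of all nuclei, Gfap-zero astrocytes made up 8.78 to 13.5% of WT-veh wells (mean 10.6% ± 1.66) and 1.77 to 6.49% of Arc-veh wells (mean 3.42% ± 2.25, n = 6 each, exact permutation, adjusted p = 0.00649). All astrocyte nuclei together made up 12.3% ± 1.69 and 11.2% ± 0.999 of the wells. The Gfap-zero difference no longer passed among nuclei with at least 1000 transcripts (7.16% against 3.3%, exact permutation, adjusted p = 0.175). In such shares fewer nuclei of a kind and more *Gfap* RNA per nucleus cannot be told apart, and the mean *Gfap* level over all astrocyte nuclei was 1282 CPM ± 386 (SD, n = 6) for Arc-veh, against 134 CPM ± 30.0 for WT-veh.

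**Figure D1:**
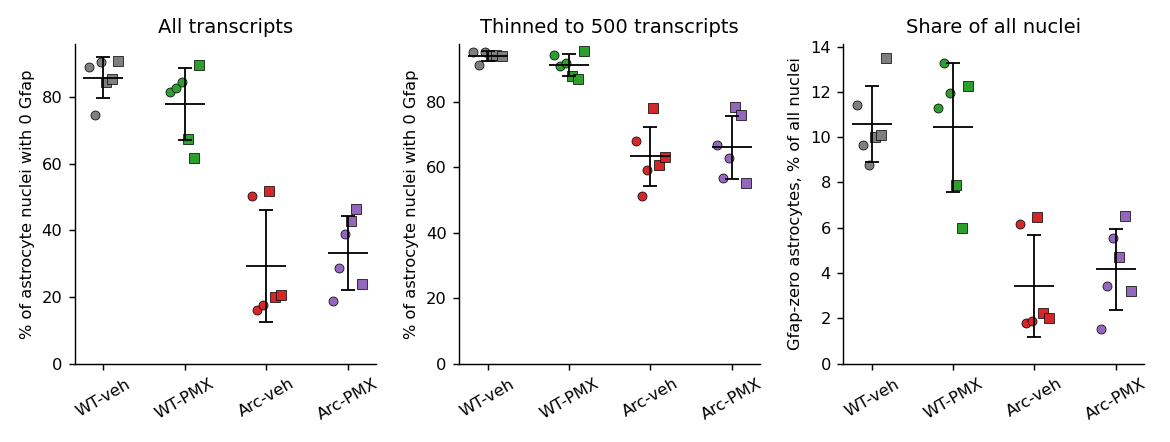
Share of Gfap-zero astrocyte nuclei by well (circles, females; squares, males) in the 4 groups, with the mean (line) and SD (bars) of 6 wells. Left, percent of astrocyte nuclei with all transcripts; middle, the same after thinning each nucleus to 500 transcripts; right, percent of all nuclei. Arc wells lie below the WT wells in the left and middle panels (16.0 to 51.8% in Arc-veh against 74.8 to 91.0% in WT-veh).

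The main comparison asked whether astrocyte nuclei with a *Gfap* count of 0 differed between Arctic and wild-type mice in other genes. They did: 27 genes rose and 5 fell in Arc-veh against WT-veh (edgeR quasi-likelihood test on counts summed per well, adjusted p under 0.05, 4110 genes tested, 0.779% called, of which 0.657% higher and 0.122% lower), with 391 genes at an unadjusted p under 0.05. The genes that rose included *Ggta1*, *C4b*, *Osmr*, *Stat3* and the zinc transporter *Slc39a14*. Adhesion gene *Lsamp* was among those that fell. The call of 8 genes, *Ggta1*, *C4b*, *Osmr*, *Slc39a14*, *Enox1*, *Plce1*, *Gpam* and *Lsamp*, held under every alternative in which the gene could be tested. The called genes *Akap13*, *Prune2*, *Dst*, *Tagln3*, *Rgl1*, *Sntb1*, *Itpkb*, *Fhit* and *Cacna2d3* were not followed through the alternatives. Genes low in WT-veh wells, such as *Ggta1*, *Osmr* and *Ddx60*, could pass the count filter through the Arc wells alone, which favoured a rise.

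*Ggta1* (chromosome 2, 35400179 to 35463231, minus strand, GRCm38), a galactosyltransferase on the A-1 list of reactive astrocytes, had the lowest adjusted p. Its level was 26.2 to 43.4 CPM in WT-veh wells (median 34.6), 81.7 to 234 in Arc-veh wells (median 204) and 110 to 217 in Arc-PMX wells (median 150). Every Arc-veh well stood above every WT-veh well. The log2 fold change was 2.52 ± 0.27 (SE, edgeR adjusted p = 4.62e-07).

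*C4b* (chromosome 17, 34728380 to 34743882, minus strand), complement component 4, opens the classical pathway beyond C1. In WT-veh wells it stood at 111 to 179 CPM (median 152) and in Arc-veh wells at 277 to 1062 CPM (median 455), with no overlap. The log2 fold change was 1.84 ± 0.26 (edgeR adjusted p = 8.43e-05). Counts of *C4b* and of its near copy *C4a* can share reads, so the value for *C4b* alone is uncertain. A transcript of *C4b* was counted in 42.8% of Arc-veh and 17.5% of WT-veh Gfap-zero nuclei, and in 1.62% of neuronal nuclei, which were deeper. With the same nuclei thinned to 500 transcripts, the shares were 18.4% and 6.77%. In oligodendrocyte nuclei the share was 36.5%. The neuronal and oligodendrocyte shares cover nuclei of all 4 groups and were not thinned, so they are not like for like with the Arc-veh and WT-veh shares.

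Other tested members of the complement list did not pass. *Csmd1*, a complement regulator, ranged from 653 to 944 CPM in WT-veh and from 432 to 1823 CPM in Arc-veh wells (log2 fold change 0.54 ± 0.23, edgeR adjusted p = 0.422), so that the Arc-veh wells lay on both sides of the WT-veh range. *Csmd2* gave 0.39 ± 0.30 (edgeR adjusted p = 0.727). In all, 1 of 5 tested members rose, beside 0.657% of all genes tested, and the median log2 fold change of the list was 0.41, beside 0.01 over all genes tested. *C3* and *Serping1* were below the count filter, with 2 and 4 counts in all Arc-veh Gfap-zero nuclei and 2 and 1 counts in all WT-veh ones.

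Cytokine receptor and STAT3 genes rose as 4 of 9 tested members of that list, beside the 0.657% of all genes that rose (median log2 fold change 0.14). The list was chosen with earlier results of these data known, so this count is not independent evidence. *Osmr*, the oncostatin M receptor, ranged from 10.9 to 32.0 CPM in WT-veh and from 24.7 to 135 CPM in Arc-veh wells (1.93 ± 0.33, edgeR adjusted p = 0.00169). Only the lowest Arc-veh well fell inside the WT-veh range. *Stat3*, the transcription factor that acts after such receptors and raises *Gfap* in reactive astrocytes, went from a median of 102 to 201 CPM (1.01 ± 0.20, edgeR adjusted p = 0.00561), again with 1 Arc-veh well inside the WT-veh range; its gene overlaps *Stat5a*. *Map3k14*, a kinase of the noncanonical NF-kB pathway, ranged from 37.0 to 97.7 CPM in WT-veh and from 98.0 to 185 CPM in Arc-veh wells, without overlap (1.25 ± 0.25, edgeR adjusted p = 0.00669). *Sbno2*, a transcriptional regulator induced by interleukin-6 type cytokines, gave 1.31 ± 0.33 (edgeR adjusted p = 0.0447), and its call was lost in 24 of 43 alternatives.

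Of the 13 members of the pan-reactive list 2 passed the count filter in the Gfap-zero nuclei, *Osmr* and *Cd44*. *Cd44*, the hyaluronan receptor of reactive astrocytes, was at 10.9 to 24.6 CPM in WT-veh and 24.7 to 107 CPM in Arc-veh wells, the ranges just apart, and its log2 fold change of 1.44 ± 0.39 missed the threshold (edgeR adjusted p = 0.0786), which it passed in 4 of 36 alternatives. Summed, the list without *Gfap* reached 148 to 400 CPM in Arc-veh and 32.6 to 100 CPM in WT-veh wells, with no overlap. *Serpina3n* gave 9 counts in all Arc-veh and 2 in all WT-veh Gfap-zero nuclei, or 12.5 and 1.04 CPM of the pooled nuclei, and *Vim* 8 and 12 counts, or 11.1 and 6.26 CPM, since the Arc-veh nuclei held fewer transcripts in all. *Lcn2* gave 1 and 0 counts. These 3 genes were below the count filter and were not tested.

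Of 7 genes taken from those that the study used to define an astrocyte cluster that it named A7, 3 rose, beside 0.657% of all genes tested. The 7 are not its full set, and the list was chosen by the study on these mice, so its direction is not independent evidence. *Enox1*, a hydroquinone oxidase, ranged from 232 to 314 CPM in WT-veh and from 358 to 764 CPM in Arc-veh wells, without overlap (1.11 ± 0.18, edgeR adjusted p = 0.00059). *Plce1*, a phospholipase C, went from 180 to 335 CPM to 479 to 888 CPM, also without overlap (1.20 ± 0.22, edgeR adjusted p = 0.00315). *Gpam*, which begins glycerolipid synthesis, gave 0.78 ± 0.16 (edgeR adjusted p = 0.00657). *Arhgef4* (0.51 ± 0.15, edgeR adjusted p = 0.131; counts of 1 of its 2 gene identifiers) and *Rgs6* (0.41 ± 0.25, edgeR adjusted p = 0.648) did not pass, though *Arhgef4* passed in 3 of 44 alternatives. The list's median was 0.78, beside 0.01 over all genes tested.

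Genes outside these lists were named by the size of their change. *Ddx60*, a helicase of the antiviral response, ranged from 10.6 to 33.7 CPM in WT-veh and from 9.3 to 213 CPM in Arc-veh wells (2.40 ± 0.47, edgeR adjusted p = 0.00561), with 5 Arc-veh wells above and 1 below the WT-veh range. *Sulf1*, which removes sulfate from heparan sulfate, was at 0 to 63.9 and 0 to 242 CPM (2.37 ± 0.52, edgeR adjusted p = 0.018), with 4 Arc-veh wells above the WT-veh range. *Slc39a14* was at 32.0 to 86.9 and 61.7 to 249 CPM, with 5 Arc-veh wells above the WT-veh range (1.54 ± 0.30, edgeR adjusted p = 0.00517). These low genes rest on few transcripts: *Ddx60* had 30 counts in all WT-veh and 61 in all Arc-veh Gfap-zero nuclei. A gene could pass the count filter through the Arc wells alone, so a rise of genes this low in WT-veh wells was favoured by the filter. *Angpt1*, a ligand of the TIE2 receptor, rose by 1.06 ± 0.22 (edgeR adjusted p = 0.0106), and it was the only called member of 20 tested growth factor genes, beside 0.657% of all genes. Collagen *Col27a1* (1.70 ± 0.42), the calcium-binding *Cpne8* (1.57 ± 0.39) and the actin regulator *Nhs* (1.52 ± 0.38) had adjusted p of 0.0447, 0.0446 and 0.0446 by edgeR, and each lost its call in 20 or more alternatives.

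AY036118, a long noncoding RNA on chromosome 17 that overlaps *Gm42418* and is linked to ribosomal RNA, had the highest fold change of all called genes (3.18 ± 0.61, edgeR adjusted p = 0.00517). It was at 333 to 541 CPM in WT-veh wells and at 412, 497, 621, 629, 4120 and 16438 CPM in Arc-veh wells, so 2 wells, F3 and M1, carried it. The summed transcripts linked to ribosomal RNA ranged from 8806 to 41569 CPM in Arc-veh and from 10063 to 23125 CPM in WT-veh wells. The other 7 transcripts of that list did not pass, and without these transcripts in the fit the counts of calls were 27 and 5 genes again.

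The 5 genes that fell had log2 fold changes of -0.50 to -0.98, and without the filter on low counts 64 genes fell and 46 rose. *Lsamp* (chromosome 16, 39984361 to 42181679, plus strand), an adhesion molecule of the IgLON family and 1 of the most abundant transcripts of these nuclei, stood at 19975 to 23758 CPM in WT-veh and at 14462 to 19170 CPM in Arc-veh wells, without overlap (log2 fold change -0.50 ± 0.09, edgeR adjusted p = 0.00315). The retinal dehydrogenase gene *Aldh1a1* was at 256 to 315 and 127 to 231 CPM (-0.70 ± 0.18, edgeR adjusted p = 0.0469) and *Otud7a*, a deubiquitinase, at 621 to 778 and 302 to 584 CPM (-0.53 ± 0.13, edgeR adjusted p = 0.0438). *Fam163a* (-0.98 ± 0.21, edgeR adjusted p = 0.0106) and *Ranbp3l* (-0.75 ± 0.18, edgeR adjusted p = 0.0438) each had 5 of 6 Arc-veh wells below the WT-veh range. The calls of *Aldh1a1*, *Otud7a* and *Ranbp3l* were lost in 27, 20 and 18 of 44 alternatives, and that of *Fam163a* in 3. *Lsamp* was the only called member of 16 tested synapse and adhesion genes (0.122% of all genes were called lower), whose median log2 fold change was -0.10.

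Lists of astrocyte housekeeping genes were read next. None of 16 astrocyte markers outside the rule, 9 glutamate and GABA handling genes, 11 potassium, water, bicarbonate and junction genes, 12 transmitter receptors, 8 energy genes and 17 transcription factors passed, in either direction, which is near the 0.779% called over all genes and says nothing particular about these lists. Their median log2 fold changes lay between -0.18 and 0.01. Among the members of these lists, *Glul* was at 533 to 726 CPM in WT-veh and 363 to 592 CPM in Arc-veh wells, *Gja1* at 97.7 to 401 and 180 to 271 CPM, and *Slc7a10* at 211 to 521 and 246 to 518 CPM. The ranges of all 3 genes overlapped. Of the rule genes, *Slc1a2* was at 9405 to 11850 CPM in WT-veh and 8417 to 10386 CPM in Arc-veh wells, and *Gpc5* at 11044 to 15310 and 10052 to 13216 CPM, a description only.

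Markers of other cell types were read beside these calls. In Arc-veh wells the summed neuronal markers were at 456 to 1572 CPM (1034 to 1903 in WT-veh), oligodendrocyte markers at 52.4 to 642 CPM (281 to 1275 in WT-veh) and microglial markers at 49.0 to 974 CPM (49.3 to 164 in WT-veh). Of these lists 7 neuronal, 5 oligodendrocyte and 1 microglial marker could be tested (median log2 fold changes -0.30, -1.56 and 0.42). None passed, which is near the 0.779% called over all genes and does not show that such RNA was alike, least of all microglial RNA. Of the pericyte list *Atp13a5* rose (0.88 ± 0.22, edgeR adjusted p = 0.0447, call lost in 25 of 44 alternatives), and of the fibroblast list *Ranbp3l* fell. Their part in the result was not tested, apart from the fits without nuclei whose other markers outnumbered the rule genes, which called 29 and 7 genes.

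**Figure D2:**
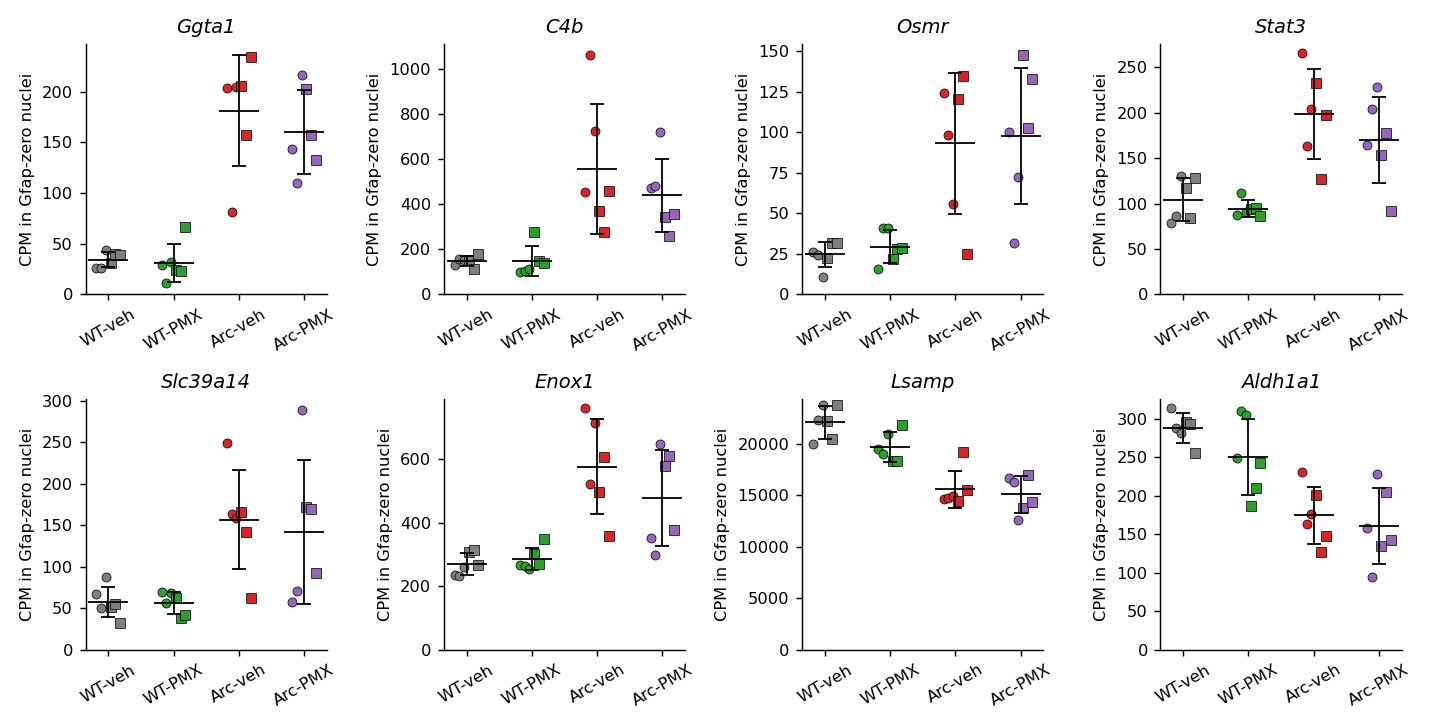
Level of 8 genes in Gfap-zero astrocyte nuclei, in CPM of these nuclei in each well (circles, females; squares, males), with the mean and SD of 6 wells per group. *Ggta1*, *C4b* and *Enox1* were higher in every Arc-veh well than in any WT-veh well, and *Lsamp* and *Aldh1a1* were lower (the call of *Aldh1a1* was lost in 27 of 44 alternatives).

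The count of 27 rising genes leaned on single wells. It was 13 without Arc-veh F1, 17 without Arc-veh F3, 14 without WT-veh F2 and 15 without WT-veh F1. A sublibrary left out gave 16 to 23. The count of 5 falling genes was 2 without WT-veh F1, F2, F3, M1 or M3, Arc-veh F1 or F2, or Arc-PMX M3, and 3 without WT-veh M2 or Arc-veh M1.

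Whether PMX205 moved these nuclei was asked next. In Arctic mice no gene passed the test between Arc-PMX and Arc-veh (0 higher, 0 lower of 4110, 0% called, 185 genes at an unadjusted p under 0.05, and 0 by DESeq2), and none did between WT-PMX and WT-veh (0% called, 131 genes at an unadjusted p under 0.05, and 0 by DESeq2). For *C4b* the Arc-PMX wells ranged from 260 to 722 CPM, overlapping the Arc-veh range of 277 to 1062 CPM, and the log2 fold change was -0.34 ± 0.25 (edgeR adjusted p = 1). *Ggta1* gave -0.25 ± 0.24 and *Osmr* -0.03 ± 0.30. The lowest adjusted p was that of AY036118 (0.0882), the transcript set by 2 Arc-veh wells. The effect of PMX205 did not differ between genotypes for any gene by the interaction term (152 genes at an unadjusted p under 0.05), and the Arctic difference did not differ between females and males for any gene (163 genes). A p that misses the threshold does not show that the groups were alike: the standard errors of 0.24 to 0.30 on the log2 scale for these 3 genes leave room for changes of that order.

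The Gfap-zero nuclei were then set against the Gfap-positive nuclei of the same wells. This test leaves out *Gfap*, *Pdgfra* and the 7 rule genes, and it asks which other genes differ between nuclei divided by *Gfap*. It gives 1 fold over all 4 groups. For *Grm5*, *Sbno2*, *Enox1* and *Plce1* the fold differed between Arc-veh and WT-veh, by the interaction given further below. *Osmr*, *Cd44*, *Stat3* and *C4b* were lower in the Gfap-zero nuclei, and *Gabbr2*, *Gria2*, *Mertk* and *Lsamp* were higher: 312 genes were higher and 336 lower (edgeR quasi-likelihood test with well as a block, adjusted p under 0.05, 5034 genes tested, 6.2% and 6.67%, together 12.9%). A gene could enter this test through the class where it was high. Of the 336 lower genes 239 were also tested in the fit of Gfap-zero nuclei alone, and 90 entered only through the Gfap-positive nuclei, so that their direction was set by the filter. Counting only the 3930 genes tested in each class alone, 283 were higher (7.2%) and 239 lower (6.08%). Since Gfap-positive nuclei were deeper, the comparison was repeated with every nucleus thinned to 500 transcripts, which gave 89 higher and 105 lower genes of 1651 tested. Unlike in the shares above, the classes stayed as set at full depth. Thinning thus could not remove the part that depth had in the split by *Gfap*. Among nuclei with 1000 to 4000 transcripts, where the medians were still 1693 in Gfap-zero and 2281 in Gfap-positive nuclei, it gave 239 and 264.

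Of the pan-reactive list *Osmr* and *Cd44* were tested in each class alone, and both were lower in Gfap-zero nuclei. In Arc-veh wells *Osmr* had a median of 109 CPM in Gfap-zero and 326 CPM in Gfap-positive nuclei, and it was lower in Gfap-zero nuclei in 22 of 24 wells (log2 fold change -1.69 ± 0.12, edgeR adjusted p = 5.14e-15). *Cd44* gave -1.84 ± 0.16 (edgeR adjusted p = 5.49e-13, lower in 20 of 24 wells). Another 5 members, the secreted protease inhibitor *Serpina3n*, the filament gene *Vim*, the sphingosine phosphate receptor *S1pr3*, *Aspg* and *Cp*, passed the count filter only through the Gfap-positive nuclei, where they were high. Their lower level in Gfap-zero nuclei was thus set by the filter and is given as a description, as log2 fold changes of -2.14 for *Serpina3n*, -1.72 for *Vim* and -1.77 for *S1pr3*.

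Of the STAT3 and cytokine receptor list 9 members were tested in each class alone, of which 4 were lower and none higher (median -0.28), beside the 6.08% of all such genes that were lower. This list and the others used here were chosen with earlier results of these data known, so their counts are not independent evidence. Among them were *Stat3* (-0.74 ± 0.09) and *Sbno2* (-1.51 ± 0.16). *Il1r1*, the interleukin-1 receptor, entered only through the Gfap-positive nuclei (-1.67). *C4b* was lower in 23 of 24 wells, with medians of 455 and 816 CPM in Arc-veh and 152 and 216 CPM in WT-veh (-0.93 ± 0.07, edgeR adjusted p = 4.18e-14). *Clu*, the lipoprotein clusterin, was lower by a log2 fold change of -0.36 ± 0.07, and *Csmd1* by -0.48 ± 0.12. Of the A7 genes used here 7 of 7 were lower (median -0.67), as were 8 of 8 transcripts linked to ribosomal RNA (median -0.21), beside 6.67% of all genes tested. Of the latter AY036118 lost its call in 17 of 28 alternatives, *Cmss1* in 14, and *Cdk8* and *mt-Rnr2* in 1 each.

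The lower genes with the largest fitted folds were rarely counted in Gfap-zero nuclei and entered the test only through the Gfap-positive ones, so that their direction was set by the filter and their values are a description. *Gldn*, gliomedin, had 0 counts in the Gfap-zero nuclei of all 6 WT-veh wells and 4 in Arc-veh, while its Arc-veh Gfap-positive nuclei ranged from 37.2 to 58.5 CPM. The fitted log2 fold change was -2.69 for *Bcl3*, a partner of NF-kB, -2.31 for *A2m*, alpha-2-macroglobulin, and -2.03 for the immediate early gene *Fos*. *Gm26668* (-1.88) overlaps *Gfap* on chromosome 11 and so is not independent of the rule.

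Some genes by which astrocytes take up and sense transmitters were higher in the Gfap-zero nuclei. *Gabbr2*, a subunit of the GABA-B receptor, had a median of 135 CPM in Gfap-zero and 91.3 CPM in Gfap-positive nuclei of WT-veh wells, and of 157 and 49.7 CPM in Arc-veh wells (1.44 ± 0.16, edgeR adjusted p = 1.74e-09, higher in 21 of 24 wells). *Slc6a11*, the GABA transporter GAT3, gave 0.56 ± 0.09 and *Glul* 0.33 ± 0.07. In the list of glutamate and GABA handling 4 of 7 tested genes were higher and none lower, beside 6.2% higher and 6.67% lower of all genes tested. Among transmitter receptors 4 of 12 were higher and 1 was lower: the AMPA receptor subunit *Gria2* (0.44 ± 0.06) was higher in 24 of 24 wells, and the metabotropic receptor *Grm3* (0.37 ± 0.06) in 22, whereas *Grm5* was lower (-0.81 ± 0.12, lower in 20 wells). The fold of *Grm5* depended on genotype, with a difference of -1.42 ± 0.26 between Arc-veh and WT-veh.

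Of 19 tested synapse and adhesion genes 11 were higher and 1 lower (median log2 fold change 0.18), beside 6.2% and 6.67% of all genes tested, and of the 16 tested in each class alone 10 were higher, beside 7.2%. Of the neuronal and oligodendrocyte markers 1 of 7 and 1 of 5 tested were higher as well and 0 lower. The part of RNA from such cells in these values was not tested. *Lsamp* (0.33 ± 0.04, edgeR adjusted p = 3.89e-08), *Mertk*, a receptor for the engulfment of debris and synapses (0.53 ± 0.07), the adhesion gene *Kirrel3* (0.37 ± 0.06) and *Chrdl1*, a secreted protein that matures synapses (0.82 ± 0.24, tested in neither class alone), were higher, and the secreted *Thbs4* was lower (-0.56 ± 0.12). Of the astrocyte markers outside the rule 6 of 16 were higher (against the same 6.2%), with *Slc7a10* at 0.56 ± 0.07 and *Trpm3* at 0.44 ± 0.06, and 2 were lower, the transcription factor *Sox9* at -0.49 ± 0.12 and *Atp1b2* at -0.29 ± 0.09.

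Among single genes *Unc13c*, a priming factor of synaptic vesicles, led (1.86 ± 0.29), with medians of 61.2 CPM in Gfap-zero and 2.55 CPM in Gfap-positive nuclei of WT-veh wells. *Unc13c*, *Pcdh15*, *Efna5* and *Zic4* were not tested in the Gfap-positive nuclei alone, so the filter favoured their direction. *Pcdh15* (1.52 ± 0.22) and *Lhfpl3* (1.07 ± 0.20), genes that oligodendrocyte precursors express strongly, were higher as well, and the summed markers of those precursors ranged from 98.0 to 930 CPM in Gfap-zero and from 0 to 340 CPM in Gfap-positive nuclei. The part of such nuclei in these values was not tested, while *Pdgfra* was 0 in every member by the rule. *Etnppl* (1.26 ± 0.15), an enzyme of phosphoethanolamine breakdown, was higher in 23 of 24 wells, and the ephrin *Efna5* gave 1.20 ± 0.18. *Mfge8*, a secreted bridge to phagocytes that marks telencephalic astrocytes, was higher in 21 of 24 wells (0.74 ± 0.12), and *Zic4*, a gene of astrocytes outside the telencephalon, was higher too (0.78 ± 0.23).

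**Figure D3:**
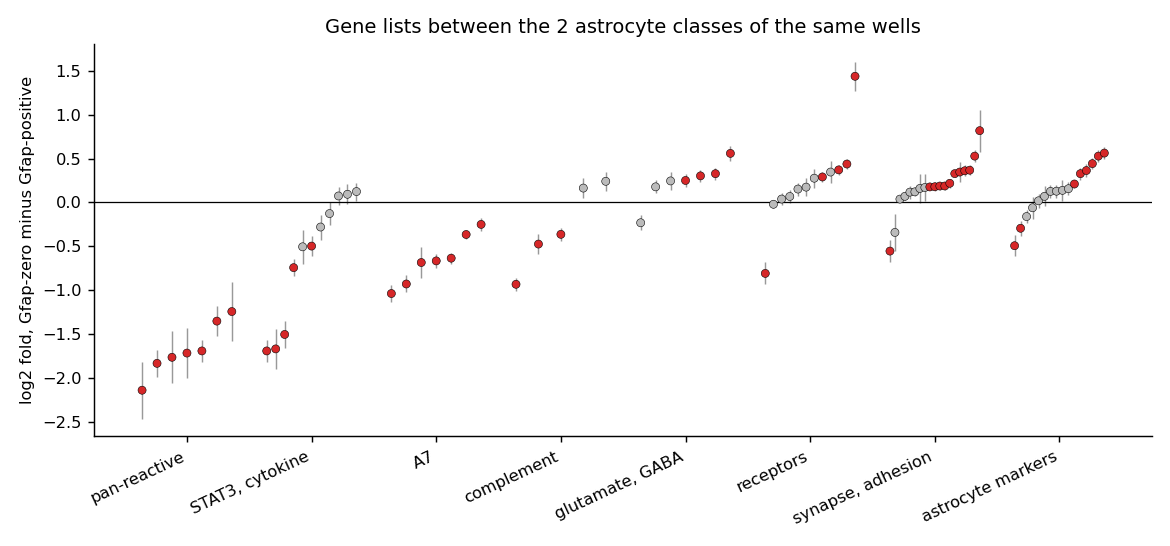
Log2 fold change between Gfap-zero and Gfap-positive astrocyte nuclei of the same 24 wells for the tested members of 8 gene lists (points, bars SE; red, edgeR adjusted p under 0.05; grey, not passed). The 7 pan-reactive genes, of which 5 passed the count filter only through the Gfap-positive nuclei, and the 7 A7 genes lie below 0, and most members of the transmitter, synapse and adhesion lists lie above 0.

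Levels by the number of *Gfap* transcripts are given for pooled nuclei, without a test. In Arc-veh, *C4b* was at 488, 790, 796, 1083 and 1066 CPM in nuclei with 0, 1, 2, 3 to 9 and 10 or more *Gfap* transcripts (376, 185, 107, 374 and 143 nuclei), and *Osmr* at 101, 149, 288, 326 and 668 CPM. In the same order *Gpc5*, a rule gene, stood at 11020, 10346, 8060, 7210 and 4653 CPM. WT-veh nuclei with 0, 1, 2 and 3 to 9 *Gfap* transcripts (1271, 164, 44 and 20 nuclei) held 145, 222, 333 and 354 CPM of *C4b*. The wells take different shares of each class (F1 and M1 of Arc-veh gave most of its Gfap-zero nuclei), and single Arc-veh wells went down to 277 CPM of *C4b* in Gfap-zero nuclei, so the pooled classes are not ranked, within or between the 2 groups. Median depth also rose with the class, from 1547 to 5089 transcripts in Arc-veh.

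**Figure D4:**
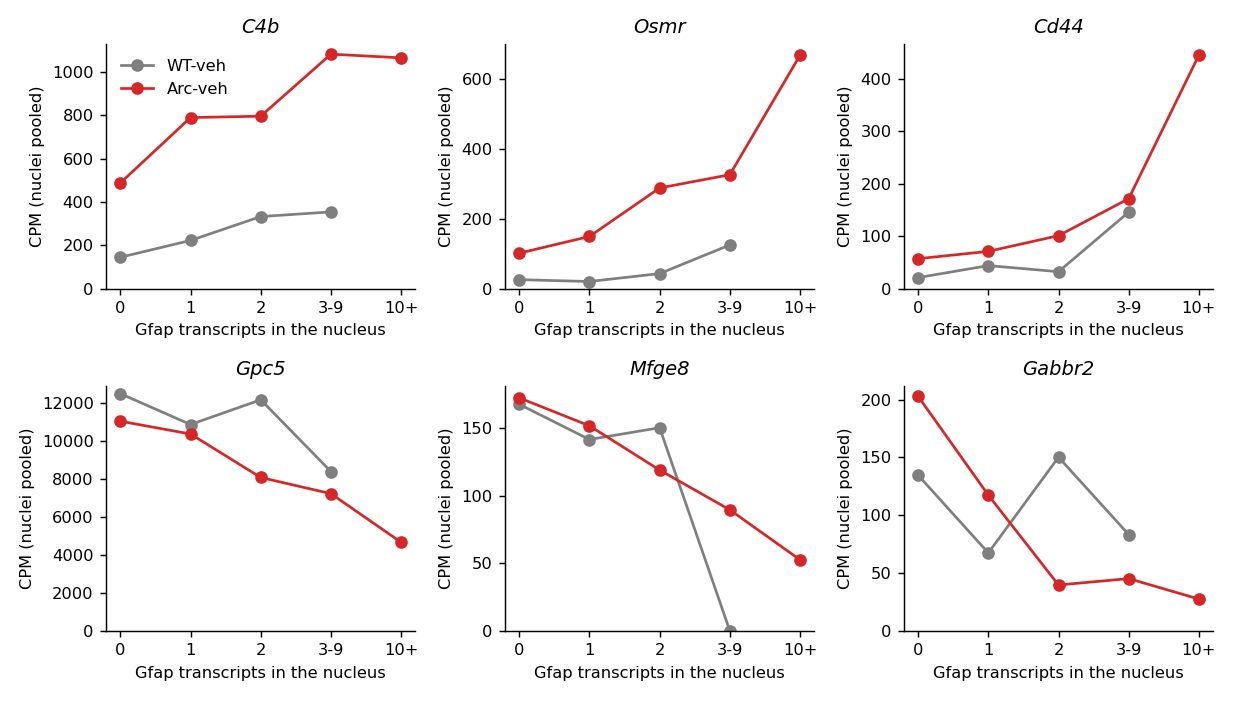
Level of 6 genes (CPM of pooled nuclei) by the number of *Gfap* transcripts in the astrocyte nucleus, for WT-veh (grey) and Arc-veh (red). No error is drawn because nuclei were pooled over wells, the WT-veh class with 3 to 9 transcripts holds 20 nuclei, and the WT-veh class with 10 or more holds none.

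Whether the Arctic difference itself differed between the classes was tested as an interaction in the same wells. For 36 of 5034 genes (0.715%) it did, with 15 higher (0.298%) and 21 lower (0.417%) in the Gfap-zero nuclei, and 452 genes at an unadjusted p under 0.05. The Gfap-positive nuclei themselves differed in *Gfap* between the genotypes. In Arc-veh 374 and 143 of them held 3 to 9 and 10 or more *Gfap* transcripts, against 20 and 0 in WT-veh. The part of this in the difference between the classes was not tested. With every nucleus thinned to 500 transcripts and the classes kept as set at full depth, the counts were 4 and 4 genes. Of the genes named here for this difference *Gria1* passed there. *Enox1*, *Plce1*, *Sbno2*, *Shroom3*, *Grm5*, *Hlf*, *Grin3a* and *Tenm4* did not (*Dst* was not followed there). *C4b* was not among them: its Arctic difference was 1.84 ± 0.26 in Gfap-zero and 2.05 ± 0.31 in Gfap-positive nuclei (difference -0.12 ± 0.23, edgeR adjusted p = 0.953). *Ggta1* gave 2.52 ± 0.27 and 2.68 ± 0.28 (difference -0.11, edgeR adjusted p = 0.99). *Osmr* was at 1.93 ± 0.33 and 3.41 ± 0.35, and its difference of -1.49 missed the threshold (edgeR adjusted p = 0.147).

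Among the genes called in Gfap-zero nuclei, 4 rose less there than in the Gfap-positive nuclei. These were *Enox1* (1.11 against 1.93, difference -0.86 ± 0.20, edgeR adjusted p = 0.0175), *Plce1* (1.20 against 2.03, difference -0.90 ± 0.20, edgeR adjusted p = 0.0147), *Sbno2* (1.31 against 3.08, difference -1.74 ± 0.40, edgeR adjusted p = 0.0148) and the cytoskeletal linker *Dst* (0.58 against 1.26, difference -0.73, edgeR adjusted p = 0.00116). The calls of *Enox1*, *Plce1* and *Sbno2* were lost in 6, 3 and 4 of 28 alternatives. *Dst* falls outside the rule for named genes and was chosen after its values were seen.

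Other genes had an Arctic difference seen mainly in one class. *Shroom3*, a regulator of cell shape, was at 262 to 312 CPM in WT-veh and 217 to 456 CPM in Arc-veh Gfap-zero nuclei, and at 99.9 to 299 and 526 to 788 CPM in Gfap-positive nuclei (difference -1.51 ± 0.24, edgeR adjusted p = 0.000193). *Grm5* was at a median of 239 and 327 CPM in Gfap-zero and 242 and 782 CPM in Gfap-positive nuclei (-1.42 ± 0.26, edgeR adjusted p = 0.00116). Both genes thus overlapped between genotypes in the Gfap-zero nuclei and separated in the Gfap-positive ones.

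In the 15 genes of the opposite sign the Arctic difference was higher in the Gfap-zero nuclei. *Hlf*, a PAR bZIP transcription factor, had medians of 239 and 192 CPM (WT-veh, Arc-veh) in Gfap-zero and 296 and 87.9 CPM in Gfap-positive nuclei (difference 1.58 ± 0.27, edgeR adjusted p = 0.000535). With Gfap-positive nuclei required to hold 3 or more *Gfap* transcripts its difference turned to -6.75. WT-veh held 20 such nuclei over all its wells, and wells with fewer than 10 were left out, so few WT-veh wells remained. Thinned to 500 transcripts, *Hlf* gave a difference of 1.55 (edgeR adjusted p = 0.146). The glutamate receptor subunits *Grin3a* (1.91 ± 0.36, edgeR adjusted p = 0.00116) and *Gria1* (1.29 ± 0.28, edgeR adjusted p = 0.00727; medians of 364 and 467 CPM in Gfap-zero and 305 and 248 CPM in Gfap-positive nuclei) and the adhesion gene *Tenm4* (1.40 ± 0.27, edgeR adjusted p = 0.0018) had the same sign. WT-veh Gfap-positive nuclei were few (12 to 82 per well). Without Arc-veh F1, WT-veh M1 or WT-veh M2 the count of 15 was 8, 9 or 5, and without Arc-veh F3 or M3 the count of 21 was 32 or 13.

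**Figure D5:**
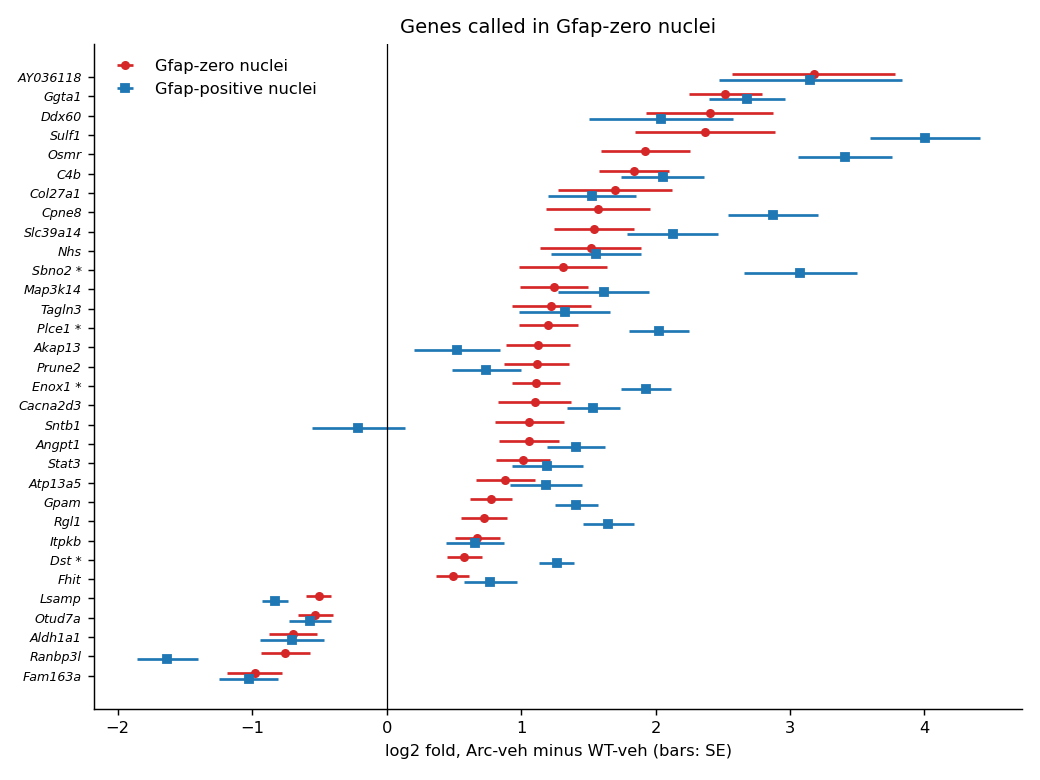
Arctic difference on the log2 scale, Arc-veh minus WT-veh (bars SE), of the 32 genes called in Gfap-zero nuclei, in Gfap-zero (red circles) and Gfap-positive nuclei (blue squares) from separate fits. Asterisks mark the 4 genes whose difference between the classes passed the test; *C4b* and *Ggta1* lie close together in both.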

How the data were processed

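Transcript counts of hippocampal nuclei in 24 single-nucleus wells were used; the 24 single-cell wells were not used. The authors made the deposited counts with the Parse split-pool pipeline on mm10, without normalization, and kept all barcodes. All 55536 gene identifiers matched GENCODE vM21, whose GRCm38 coordinates are given. Group and sex of each well came from the deposited sample sheet. Nuclei needed more than 300 and fewer than 50000 transcripts, more than 400 genes and under 1% mitochondrial transcripts. Doublets (Scrublet in scanpy 1.11.5, score above 0.25) were kept in the main result and removed in an alternative. CPM is scaled to the transcripts of the class in a well.

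Counts were summed per well over the 7 sublibraries and tested by edgeR 4.0.16 (R 4.3.3) with TMM, filterByExpr, a term for sex, and p adjusted by Benjamini-Hochberg over all genes tested. Classes were compared with well as a block. Standard errors were taken from the F statistic. DESeq2 1.42.0 and the other alternatives are described at the end. Fits were tested on simulated data. The members and gene lists were chosen with earlier results of these data known.

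Named genes are the rule's genes, the 10 largest changes per direction (past an adjusted p of 0.05, with a log2 CPM averaging 5 or more, in group comparisons the same sign in both sexes), called members of the lists with up to 4 others each, genes the study names for astrocytes, and *App*. Intervals and shares cover counting error only. The labels describe no pooling of mice for nuclei, and 1 well is taken as 1 mouse. Neuronal and oligodendrocyte nuclei are those outside the astrocyte rule with at least 1% of transcripts from that type's markers. Single values of 2 genes of the fixed gene lists are not reported here.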

Additional observations from a re-analysis of the deposited data

Results flagged for a closer look

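Of the well values of the shares and the named genes, 9 stood apart from the other 5 wells of their group by Dixon's test at the 95% level, of 58 groups examined, and chance alone flags about 1 in 20. *Lsamp* in Arc-veh M2 (19170 CPM) and *Atp13a5* in the same well (285 CPM) were the highest of their group. *Plce1* in WT-veh F1 (180 CPM) was the lowest and *Ddx60* in the same well (33.7 CPM) the highest. In Arc-veh F1, *Otud7a* (302 CPM) was the lowest and *Sbno2* (258 CPM) the highest. *Ranbp3l* in WT-veh M1 (339 CPM), *Col27a1* in Arc-veh F2 (278 CPM) and AY036118 in Arc-veh M1 (16438 CPM) were the highest of their groups.

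The Arctic difference differed between Gfap-zero and Gfap-positive nuclei, by the interaction term, for 15 genes with a higher and 21 genes with a lower value in Gfap-zero nuclei.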

How the results depend on the processing

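Of 5404 alternative values of 173 gene results, 4932 stayed on the same side of the threshold, 449 lost the call and 19 gained one. Of the 19, 11 were the difference of the Arctic effect for *Csmd1* and 4 the Arctic difference of *Cd44*. A change of sign was counted only for results called in the main fit, so uncalled results among the 4932 could change direction. Among called results 4 values reversed. With Gfap-positive nuclei required to hold 3 or more *Gfap* transcripts, the difference of the Arctic effect between classes became -1.11 for *Dcc*, 0.39 for *Gm4876*, -6.75 for *Hlf* and -6.01 for *Rhobtb3*. That setting gave 506 higher and 536 lower genes between classes. WT-veh held 20 nuclei with 3 to 9 *Gfap* transcripts and 0 with more, and wells with fewer than 10 such nuclei were left out. Few WT-veh wells thus remained, so the 4 reversals rest on very few mice and no counts of calls are given for this difference. Thinning to 500 transcripts, with classes as set at full depth, gave 89 and 105 between classes and 4 and 4 for the difference. It gave 10 and 2 between Arc-veh and WT-veh, 1 lower gene for Arc-PMX against Arc-veh and 1 for the PMX205 interaction. Nuclei of 1000 to 4000 transcripts gave 8 lower genes for the difference. Between Arc-veh and WT-veh (27 and 5), no filter on low counts gave 46 and 64, Gfap-positive nuclei included 510 and 323, DESeq2 8 lower, no sex covariate 3 lower and at least 1000 transcripts 3 lower. Without the filter, Arc-PMX against Arc-veh gave 9 and 5, WT-PMX against WT-veh 4 and 3 and the interaction 7 and 3 genes. Removing doublets, rule genes of at least 2% or own markers in the majority gave 1 lower gene each for Arc-PMX against Arc-veh. The share of all nuclei changed by -3.86 points between Arc-veh and WT-veh with at least 1000 transcripts. The cause was not tested for any of these.

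Leaving out a well gave 13 to 30 higher and 2 to 6 lower genes between Arc-veh and WT-veh, and a sublibrary 16 to 23 and 2 to 5. For Arc-PMX against Arc-veh it gave 0 to 1 lower, between classes 267 to 332 and 300 to 363, and for the difference of the Arctic effect 5 to 21 and 13 to 32. The count of 5 lower genes was 2 without WT-veh F1, F2, F3, M1 or M3, Arc-veh F1 or F2, Arc-PMX M3, or sublibraries 4 or 6, and 3 without WT-veh M2, Arc-veh M1 or sublibrary 7. The 1 gene for Arc-PMX appeared without Arc-veh F1, F2, M2 or M3. Replicate numbers did not pair the wells: 5 of 36 same-number pairs correlated above 0.1 (-0.12 to 0.22, median 0.03), and with a replicate block 18 genes were higher and 3 lower between Arc-veh and WT-veh. Counts were high enough to test 2 of 13 pan-reactive, 1 of 12 A-1 and 0 of 12 A-2 genes between the groups.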
